A study of Rattus norvegicus with 63 samples.

Results

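The comparison described here is that of methamphetamine with saline in the prefrontal cortex (PFC) of drug-pretreated rats. Its members are the 6 arrays, of 63 in the series, that the labels place in the pretreated cohort's PFC methamphetamine group (3 arrays) and PFC control group (3 arrays). All rats were male Wistar rats that arrived at 4 weeks of age and began treatment at 6 weeks. The methamphetamine rats received 5 mg/kg of the drug by intraperitoneal injection 2 times a day for 7 days, were then conditioned to a place with 5 mg/kg, and later self-administered it at 0.1 mg/kg per infusion. The controls received saline at each of these stages, with 0.1 ml per infusion, and went through the same behavioural tests. Brains were taken a day after the last self-administration test from the rats that self-administered most, so the drug group is a selected one, and the age at dissection and the hour of the day are not given in the sources used here. The labels speak of RNA pools and also of as many rats as arrays, so p-values measure the spread between arrays. In the PFC comparisons that spread, and each SE, was estimated over all 31 PFC arrays in 10 groups, not over these 6 alone. The other groups used for contrast in the same cohort are amphetamine (5 mg/kg pretreatment and conditioning, 0.1 mg/kg infusions) and methylphenidate (5 mg/kg, 0.25 mg in 0.1 ml per infusion). The matching striatal arrays of this cohort number 3 per group. From the drug-naive cohort, which had no drug before conditioning, come the methamphetamine 5 mg/kg and saline groups (3 and 5 arrays). These naive methamphetamine rats were conditioned with 5 mg/kg and self-administered 0.1 mg/kg per infusion. The remaining naive PFC groups enter only the spread and the order of group means. They were conditioned with amphetamine at 1.25 or 5 mg/kg, methamphetamine at 1.25 mg/kg or methylphenidate at 5 mg/kg, with the same infusions for each drug.

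Methamphetamine enters dopamine, noradrenaline and serotonin terminals, releases these transmitters and blocks their uptake. In the PFC the released monoamines act on pyramidal neurons and interneurons, and acute stimulants switch on immediate early genes such as Fos and Arc there. The molecular clock is a loop that runs in cortical cells too: CLOCK, NPAS2 and BMAL1 activate the Per, Cry, Nr1d and Bhlhe genes, whose products repress the activators or their transcription, and output factors such as DBP, TEF and HLF carry the rhythm to other genes. Adrenal glucocorticoids switch on a set of genes that includes Per1, Sgk1 and Tsc22d3.

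Values are log2 of the microarray signal of 1 probe set per gene, and 8530 genes with enough signal in the PFC were tested. On the 6 arrays, pairs of arrays within a group correlated at 0.943 to 0.955 over all probe sets and pairs from different groups at 0.945 to 0.954, ranges that overlap. Of the cortical pyramidal markers Slc17a7, Neurod6, Bhlhe22 and Rtn4r passed the signal filter, with group means of 9.39 to 11.23 against 5.66 to 7.86 in the pretreated cohort's striatal saline arrays. Tbr1 did not, at 2.52 on the saline and 1.58 on the methamphetamine arrays. Of the 6 striatal markers Drd2 and Gpr6 were under the filter, and the other 4 averaged 8.51 to 9.45 on the saline arrays and 8.39 to 8.76 on the methamphetamine arrays. The highest of these 6 values, 9.45, was that of saline array 1. Gapdh signal at the 3′ end exceeded that at the 5′ end by 0.69 to 0.88 on the saline and by 0.63 to 0.70 on the methamphetamine arrays (log2 scale), and the part of this RNA measure in the results was not tested.

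Nr1d2 was the only gene of 8530 that passed at an adjusted p below 0.05 (0.0117%), by limma with Benjamini-Hochberg adjustment, and it rose. At an unadjusted limma p below 0.05 there were 152 higher genes (1.78%) and 145 lower genes (1.7%), and the median difference of all genes was 0.00096, with 50.3% of genes above 0. Groups of 3 and 3 arrays that did not overlap were found for 418 higher genes (4.9%) and 423 lower genes (4.96%). A difference of 2-fold or more was seen in 4 genes (0.0469%), all lower after methamphetamine and with groups that did not overlap: Fos, Arc and the globin genes Hbb and Hba-a3. The plot of difference against p shows the red point of Nr1d2 apart from the other genes.

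**Figure D1:**
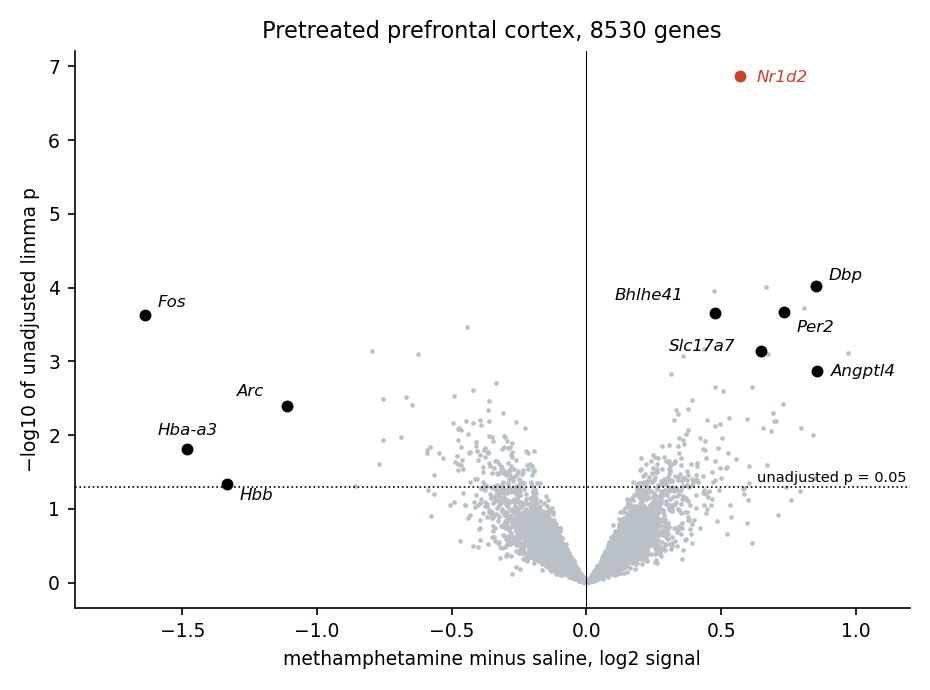
Each point is 1 of the 8530 genes, with methamphetamine minus saline (log2 signal, 3 against 3 arrays) on the horizontal axis and −log10 of the unadjusted limma p on the vertical axis. Nr1d2 (red) is the only gene past an adjusted p of 0.05, and Fos, Arc, Hbb and Hba-a3 are the only genes beyond 1 on the log2 scale.

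Nr1d2 encodes REV-ERB beta, a haem-binding nuclear receptor that represses Bmal1 and other clock targets. Its log2 signal was 11.07, 11.01 and 11.08 on the saline arrays and 11.55, 11.54 and 11.78 on the methamphetamine arrays. Every drug array was above every saline array, and the gap between groups was wider than the range within either. Nr1d2 rose by 0.57 ± 0.08 (SE, log2 scale, n = 3 and 3, 95% interval 0.40 to 0.73), or 1.48-fold, with a limma adjusted p of 0.00115. A pair of further probe sets of the gene read 0.63 and, on a dim probe set, 1.29 higher. The call depended on the arrays that share the estimate of spread: fitted on these 6 arrays alone, the limma adjusted p of Nr1d2 was 0.0774, while it stayed under the threshold in each of the 6 fits that left out 1 of the arrays, at 0.49 to 0.61.

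RefSeq promoter windows of build GRCr8, the 250 bases before the annotated start, were searched for the letters that clock factors bind. Windows were found for 17 of the 20 clock genes tested. The 3 shown were picked after their values were seen, as 1 higher member for each motif. The window of Dbp, the clock gene with the largest difference, holds none of the 3 motifs. The capitals mark letters found by search on either strand: the nuclear receptor core AGGTCA in Nr1d2 (chr15:9954784-9955033, plus strand), the D-box TTATGNAA in Per2 (chr9:99496994-99497243, minus strand), the letters that DBP, TEF and HLF bind, and the E-box CACGTG in Bhlhe41 (chr4:180569356-180569605, minus strand), the letters that CLOCK with BMAL1 binds.
Nr1d2: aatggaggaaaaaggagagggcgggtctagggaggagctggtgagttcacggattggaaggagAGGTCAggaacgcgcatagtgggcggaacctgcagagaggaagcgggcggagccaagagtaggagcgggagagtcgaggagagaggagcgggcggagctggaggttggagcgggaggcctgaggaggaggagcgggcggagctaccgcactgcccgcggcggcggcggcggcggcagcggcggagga
Per2: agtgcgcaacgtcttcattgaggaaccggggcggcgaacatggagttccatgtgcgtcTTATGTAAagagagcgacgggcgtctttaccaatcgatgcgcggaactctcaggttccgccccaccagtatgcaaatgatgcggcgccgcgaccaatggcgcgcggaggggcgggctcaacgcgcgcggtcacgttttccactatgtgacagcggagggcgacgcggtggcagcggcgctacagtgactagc
Bhlhe41: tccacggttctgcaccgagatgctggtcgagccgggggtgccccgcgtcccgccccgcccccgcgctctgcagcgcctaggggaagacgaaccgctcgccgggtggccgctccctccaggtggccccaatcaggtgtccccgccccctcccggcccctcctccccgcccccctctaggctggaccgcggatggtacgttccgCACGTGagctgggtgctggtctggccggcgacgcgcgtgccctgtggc
The match begins 187 bases before the start in Nr1d2, 192 in Per2 and 48 in Bhlhe41. Of all 33469 windows of the same length, 14.1% hold AGGTCA, 3.28% hold TTATGNAA and 5.59% hold CACGTG. Among the 17 clock genes AGGTCA was in Nr1d2, Bmal1 and Usp2, TTATGNAA in Per2, and CACGTG in Bhlhe40, Bhlhe41, Nr1d1 and Tef. The motifs do not share letters in these windows, and a match is a description of the letters only.

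The clock list had 20 tested members of 26. Of these, 14 were higher in the methamphetamine group and 6 lower, with a median difference of 0.17 on the log2 scale against 0.00096 over all genes. At an unadjusted limma p below 0.05, 8 members were higher and 1 lower, beside 1.78% and 1.7% of all genes, and 8 higher and 3 lower had groups that did not overlap, beside 4.9% and 4.96%. After adjustment Nr1d2 alone passed.

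The repressors stood on the higher side: all 8 tested were above 0, with a median of 0.46. Per2, a core repressor that is also switched on by light and by neuronal activity, read 9.27, 9.17 and 9.17 on the saline arrays and 9.47, 10.03 and 10.31 on the methamphetamine arrays. The groups did not overlap, with methamphetamine array 1 close to saline and array 3 far above it. The difference was 0.73 ± 0.17 (SE), with a limma adjusted p of 0.255, so Per2 did not pass. Without methamphetamine array 1 it was 0.97, with a limma adjusted p of 0.0175.

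Bhlhe41 (DEC2), which competes for E-boxes, read 11.28, 11.28 and 11.27 with saline and 11.72, 11.62 and 11.91 with methamphetamine. Its saline arrays were almost equal and all lay below the drug arrays, a difference of 0.48 ± 0.11 (limma, adjusted p = 0.255). Its relative Bhlhe40 was 0.44 higher, with groups that did not overlap. Nr1d1 (REV-ERB alpha) read 8.57, 8.46 and 8.40 against 8.78, 8.86 and 9.28, a difference of 0.50 ± 0.17. Its groups did not overlap, as for Nr1d2. Per1 overlapped between groups and differed by 0.31 ± 0.15, and the cryptochromes differed least, at 0.05 for Cry1 and 0.03 for Cry2.

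Among the outputs all 4 tested genes were above 0. Dbp, a PAR bZIP factor that binds D-boxes, read 9.78, 9.52 and 9.64 on the saline arrays and 10.40, 10.51 and 10.59 on the methamphetamine arrays. The 3 drug arrays sat together above the 3 saline arrays. The difference was 0.85 ± 0.19 (SE, 1.80-fold), the second smallest p of all genes, with a limma adjusted p of 0.236. Fitted on the 6 arrays alone Dbp passed, with a limma adjusted p of 0.0103. Usp2, a deubiquitinase, and Tef were 0.29 and 0.21 higher without overlap, and Hlf was 0.14 higher with overlap.

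The activators leaned the other way. Bmal1, the partner of CLOCK, read 7.89, 8.10 and 7.86 on saline arrays and 7.75, 7.72 and 7.37 on drug arrays, a difference of -0.33 ± 0.16 that did not pass, with groups that did not overlap. Clock was at -0.19, also without overlap, and Npas2 at -0.14 with overlap. The retinoid-related receptors Rora and Rorb, which activate Bmal1, were at 0.28 and 0.00 with overlapping arrays. The 3 kinases and ligases tested lay between -0.15 and 0.04.

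**Figure D2:**
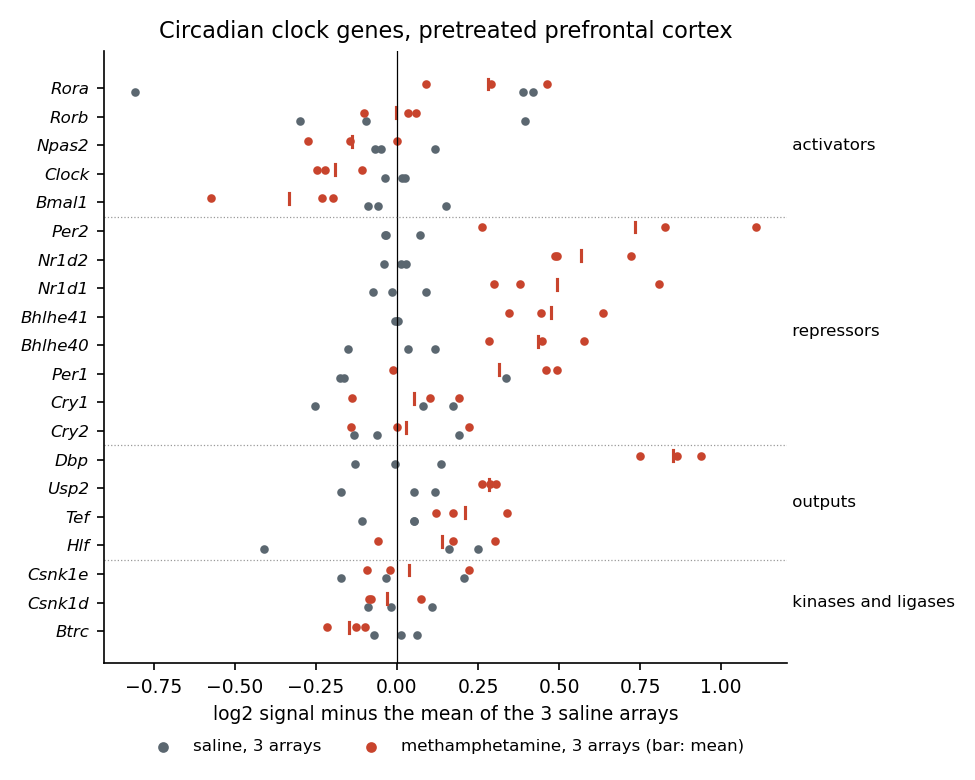
Log2 signal of the 20 tested clock genes on each of the 6 arrays, minus the mean of the gene's 3 saline arrays, grouped by role. Red bars are methamphetamine means; 5 of 8 repressors and 3 of 4 outputs have all red points to the right of all grey points, while Bmal1 and Clock have them to the left.

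Levels were also set beside the other PFC groups. The saline mean of Nr1d2, 11.05, was the lowest of the 10 PFC groups of the series, of which the other 9 ranged from 11.41 to 11.71, and the methamphetamine mean of 11.62 lay inside that range. The saline mean of Per2, 9.20, was again the lowest, with the others at 9.94 to 10.75, and methamphetamine, at 9.94, had the lowest of these. Dbp had its lowest mean, 9.65, in the same saline group, with the others at 10.19 to 10.53. Single naive saline arrays also read low for Dbp, with 9.77 and 9.68 on arrays 4 and 5 and 10.47 to 10.52 on arrays 1 to 3. In all, the pretreated cohort's saline group was the lowest of the 10 for 7 of 20 clock genes, or 35.0%, and for 7.81% of all genes tested. It was not the lowest for Bhlhe41 or Nr1d1. In levels set across cohorts, the cohort and any difference in handling cannot be told apart.

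**Figure D3:**
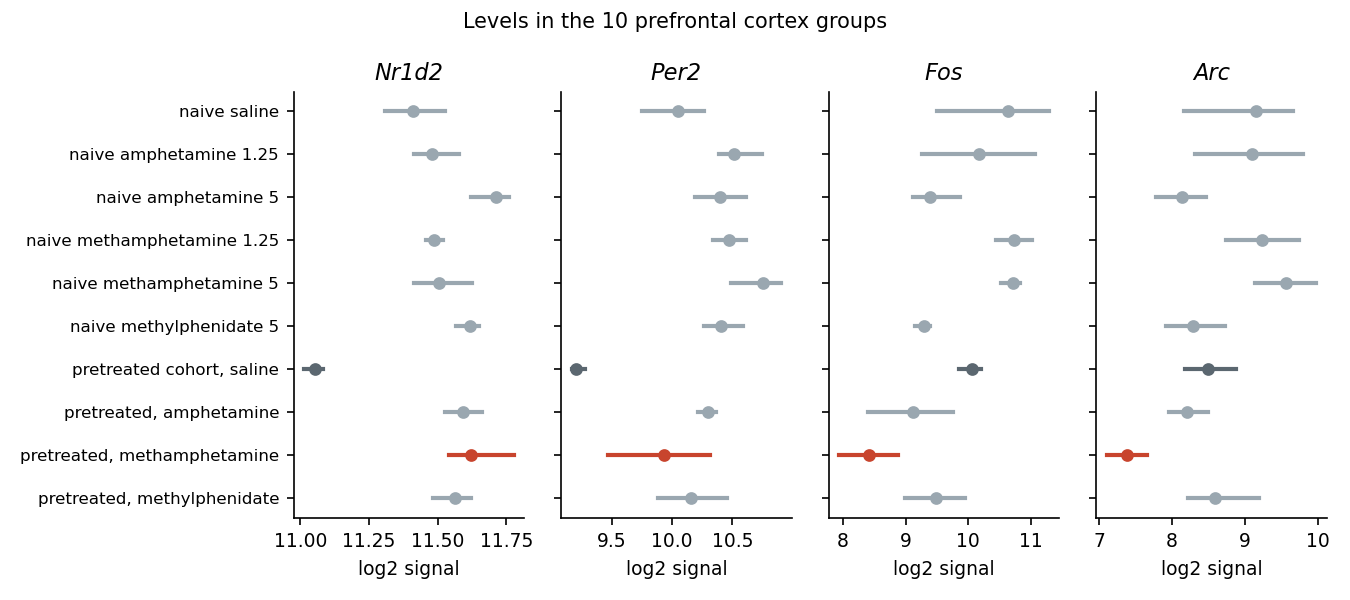
Log2 signal of Nr1d2, Per2, Fos and Arc in the 10 PFC groups (2 to 5 arrays each; naive groups with their conditioning dose in mg/kg). Points are means and lines run from the lowest to the highest array. Saline of the pretreated cohort (dark) is lowest for Nr1d2 and Per2, and pretreated methamphetamine (red) is lowest for Fos and Arc.

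Immediate early and activity genes lay lower after methamphetamine, although none passed after adjustment. Of 46 listed genes 30 were tested, 22 of them below 0, with a median of -0.10 on the log2 scale. Groups did not overlap for 10 lower members and 1 higher, beside 4.96% and 4.9% of all genes. At an unadjusted limma p below 0.05 there were 5 lower members and 0 higher, beside 1.7% and 1.78%. Without saline array 1 the list's median was -0.18.

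Fos, a subunit of the AP-1 transcription factor and a standard marker of recent neuronal activity, showed the largest difference of any tested gene. Its log2 signal was 10.21, 9.84 and 10.13 with saline and 7.94, 8.45 and 8.88 with methamphetamine. The highest drug array was still below the lowest saline array, and the drug arrays were spread more widely. The difference was -1.64 ± 0.39 (SE), a drug level of 0.321 times saline, with a limma adjusted p of 0.255. Fitted on the 6 arrays alone the limma adjusted p was 0.0103. Arc, which travels to dendrites and regulates AMPA receptor uptake, read 8.88, 8.19 and 8.41 against 7.10, 7.65 and 7.38. No arrays overlapped, and the difference was -1.11 ± 0.36 (0.462 times saline). It did not pass.

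The other members followed with smaller values. Among the transcription factors Egr2 differed by -0.86, with groups that did not overlap, and the orphan nuclear receptor Nr4a1 read 8.81, 8.68 and 8.73 against 7.95, 8.13 and 8.40. That difference was -0.58 ± 0.22, again without overlap. Egr1, bright on every array, was 12.51, 12.59 and 12.67 with saline and 12.08, 12.26 and 12.37 with methamphetamine, a difference of -0.35 ± 0.22 with no overlap. Of the effectors Dusp6, a phosphatase of ERK, differed by -0.45 ± 0.15 without overlap. Bdnf, a growth factor of cortical neurons, differed by -0.05 ± 0.20 with overlapping arrays, and Klf2 was the highest member at 0.60, with overlap.

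**Figure D4:**
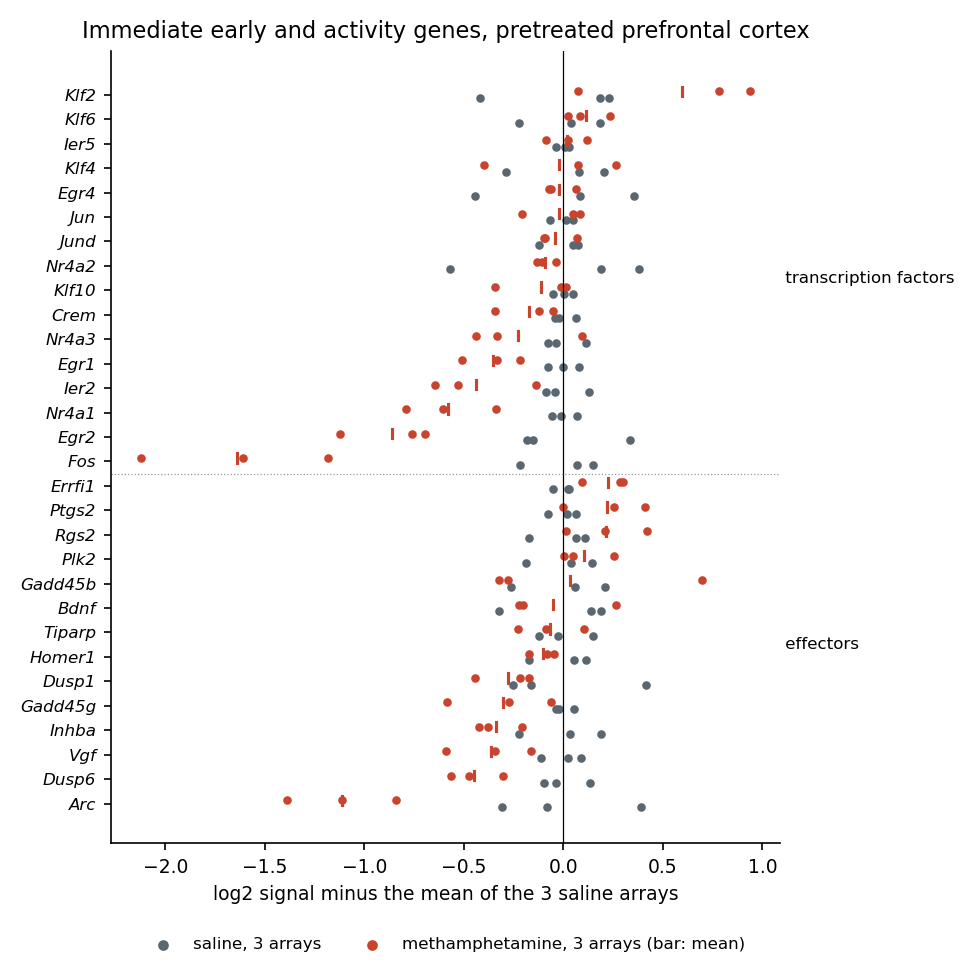
Log2 signal of the 30 tested immediate early and activity genes on each of the 6 arrays, minus the mean of the gene's 3 saline arrays. Fos and Arc have all 3 red points (methamphetamine) furthest to the left, and 10 of the 30 genes have all red points left of all grey points.

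For Fos and Arc it was the drug group that had the lowest mean of the 10 PFC groups. The methamphetamine means of Fos, 8.42, and Arc, 7.38 compare with other groups at 9.12 to 10.73 for Fos and 8.13 to 9.57 for Arc. The pretreated methamphetamine group was the lowest for 9 of 30 activity genes, or 30.0%, and for 8.8% of all genes tested. It was the highest for 1 of the 30, and the saline group was the highest for 3 and the lowest for 3. Glutamate receptor and scaffold genes had the same share, with methamphetamine lowest for 9 of 30.

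Glucocorticoid-responsive genes lay higher in the drug group. Of 30 listed genes 23 were tested, and 20 were above 0, with a median of 0.20 on the log2 scale. At an unadjusted limma p below 0.05 there were 7 higher members and 0 lower, beside 1.78% and 1.7% of all genes, and 9 higher and 0 lower had groups that did not overlap, beside 4.9% and 4.96%. No member passed after adjustment, and Per1 is shared with the clock list. The classic target Fkbp5, a co-chaperone of the glucocorticoid receptor, was 0.07 higher with overlapping arrays.

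Angptl4, a secreted inhibitor of lipoprotein lipase, read 7.51, 7.77 and 7.59 with saline and 8.57, 8.51 and 8.36 with methamphetamine. The groups were tight and well apart, and the difference was 0.85 ± 0.24, with a limma adjusted p of 0.687. Nfkbia, the inhibitor of NF-kB, read 8.18, 8.50 and 8.09 against 8.72, 8.92 and 8.60, a difference of 0.49 ± 0.19. Ddit4, a brake on mTORC1, read 10.63, 10.61 and 10.43 against 10.80, 11.17 and 10.86, a difference of 0.39 ± 0.16. Neither overlapped between groups, and neither passed. The kinase gene Sgk1 was 0.85 higher and Tsc22d3 (GILZ) 0.31 higher, both without overlap and with methamphetamine array 2 the highest array for each.

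For 16 of the 23 glucocorticoid-responsive genes (69.6%) the saline group had the lowest mean of the 10 PFC groups, beside 7.81% of all genes. For Sgk1 it was at 10.16, with the other groups at 10.78 to 11.81.

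Haemoglobin signal lay lower on the drug arrays, although it did not pass. Hbb, the beta chain of haemoglobin, read 13.64, 13.20 and 13.65 with saline and 12.38, 12.29 and 11.81 with methamphetamine. All drug arrays were below all saline arrays, and the difference was -1.34 ± 0.64. The array spread of Hbb over the whole PFC was large, and it did not pass in the fit of all PFC arrays, while on the 6 arrays alone its limma adjusted p was 0.0103. The alpha chain Hba-a3, named after its values were seen, differed by -1.48 ± 0.58 and had a limma adjusted p of 0.00258 on the 6 arrays alone. Pf4, a platelet chemokine, went the other way at 0.39, with overlapping arrays. The summed signal of these 2 blood markers tested (of 9), most of it from the brighter Hbb, was 9589 to 13067 on the saline and 3878 to 5587 on the methamphetamine arrays. The part of blood in the other differences was not tested.

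The endothelial list did not separate the groups. Of 15 tested markers 10 were above 0, with a median of 0.16. At an unadjusted limma p below 0.05 there were 0 higher and 1 lower, beside 1.78% and 1.7% of all genes. Groups did not overlap for 1 higher and 1 lower member, beside 4.9% and 4.96%. The summed signal overlapped, at 10122 to 12322 with saline and 11196 to 14582 with methamphetamine. Kdr, the VEGF receptor of endothelial cells, went against the list, at 8.37, 8.52 and 8.46 against 7.59, 7.63 and 8.06, a difference of -0.69 ± 0.25 without overlap. Mgp, a matrix protein of mural and meningeal cells, differed by 0.67 ± 0.28 with overlap. None of these passed.

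Among cortical excitatory neuron markers, 24 of 27 were tested, and 7 were above 0 and 17 below, with a median of -0.03. Slc17a7, the vesicular glutamate transporter VGLUT1, stood out from its list. It read 10.46, 10.45 and 10.45 with saline and 11.14, 11.21 and 10.95 with methamphetamine. The saline arrays were nearly identical and below all drug arrays, a difference of 0.65 ± 0.17 with a limma adjusted p of 0.446, or 0.0476 on the 6 arrays alone. A second, dimmer probe set of the gene read 0.20 higher. Ccn2, a matricellular protein of deep-layer neurons and of vessels, read 10.19, 10.55 and 10.42 against 10.88, 11.49 and 11.18, a difference of 0.80 ± 0.28 without overlap. The summed signal of the list was 83639 to 91156 with saline and 81774 to 85870 with methamphetamine.

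Oligodendrocyte and myelin markers were on the lower side. Of 25 tested (of 32), 22 were below 0, with a median of -0.19, and 5 lower and 1 higher had an unadjusted limma p below 0.05, beside 1.7% and 1.78% of all genes. The groups did not overlap for 7 lower members and 1 higher, beside 4.96% and 4.9%. Adamts4, a protease of oligodendrocytes, read 9.06, 9.34 and 9.29 with saline and 8.48, 8.50 and 8.83 with methamphetamine, a difference of -0.62 ± 0.17 (limma, adjusted p = 0.446). Mag, an adhesion protein next to the axon, differed by -0.48 ± 0.17, and Car2, carbonic anhydrase of glia, by -0.47 ± 0.17, both without overlap. A second, dimmer probe set of Car2 differed by -0.25 ± 0.20 with overlapping arrays. Mbp, the major basic protein of myelin, overlapped and differed by -0.15 ± 0.17, while its dimmest probe set was at 0.19. Qdpr, which regenerates the tetrahydrobiopterin cofactor of tyrosine hydroxylase and is also on the dopamine list, lay higher, at 0.50 ± 0.19. The summed signal of the list was 109271 to 128367 with saline and 99026 to 112048 with methamphetamine. In bulk tissue fewer cells of a type and less RNA per cell cannot be told apart.

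Striatal projection neuron markers, which a PFC dissection can hold where it reaches the striatum, had 20 of 28 tested, 14 of them below 0, with a median of -0.16. Their summed signal was 29344 on saline array 1 and 23800 to 25421 on the other 5 arrays. Pde10a, a phosphodiesterase of striatal neurons, read 10.50, 10.32 and 10.28 with saline and 10.02, 9.91 and 9.99 with methamphetamine, a difference of -0.39 ± 0.13 without overlap. A second, dimmer probe set of Pde10a differed by -0.08 ± 0.21 with overlapping arrays. Drd1, the D1 dopamine receptor, was highest on saline array 1 and read 9.27 and 8.91 on the other saline arrays and 9.11, 9.25 and 9.09 with methamphetamine. Its difference of -0.24 ± 0.24 became 0.06 without saline array 1. The peptide genes Penk, Tac1 and Cartpt differed by 0.07 ± 0.23, 0.02 ± 0.29 and -0.33 ± 0.31, and the signalling inhibitor Ppp1r1b (DARPP-32) by -0.24 ± 0.17, all with overlapping arrays.

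Outside these lists the genes with the smallest p on the higher side were Smim3, Rasl10a, Vwc2, Gabpb1 and Upp1, none of which passed. Smim3, a small membrane protein, read 8.12, 7.93 and 7.52 against 8.45, 8.69 and 8.42, a difference of 0.66 ± 0.15 (limma, adjusted p = 0.236). Rasl10a, a Ras-like GTPase, differed by 0.47 ± 0.11 and passed when methamphetamine array 3 was left out (0.59, limma, adjusted p = 0.0446). Vwc2, a secreted BMP antagonist, read 8.07, 8.23 and 8.02 against 8.95, 8.82 and 8.98, a difference of 0.81 ± 0.19. The groups were tight and did not overlap. Gabpb1, a subunit of the ETS factor GABP, differed by 0.43 ± 0.11, and Upp1, uridine phosphorylase, by 0.97 ± 0.26, the largest positive difference of any gene.

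On the lower side, after Fos, came Sphk2, Slc4a11, Adamts4, Fam89b, Ttyh3, Rhpn2, Dazap1, Tmem100 and Lsm11, and again none passed. Sphk2, a sphingosine kinase, read 8.51, 8.58 and 8.54 with saline and 8.08, 8.27 and 7.95 with methamphetamine, a difference of -0.44 ± 0.11 (limma, adjusted p = 0.321). Its partner in that pathway Acer2, an alkaline ceramidase, was 0.84 ± 0.30 higher. Slc4a11, a membrane transporter, differed by -0.80 ± 0.21 and Dazap1, an RNA-binding protein, by -0.67 ± 0.21, without overlap. Fam89b, Rhpn2 and Lsm11, a component of the U7 snRNP, differed by -0.34 to -0.49. Ttyh3 differed by -0.42 ± 0.13 on its brightest probe set and by 1.71 and 1.18 on dim ones, so its direction is uncertain. Sphk2 likewise had a dim probe set at 0.20.

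The remaining lists held few members with an unadjusted limma p below 0.05. Scaffold and glutamate receptor genes had 24 of 30 tested members below 0, with a median of -0.09, among them the postsynaptic scaffold genes Shank3 at -0.38 ± 0.14 and Dlg1 at -0.21 ± 0.09. A second probe set of Dlg1 was at 0.31 ± 0.18, so its direction is uncertain. Groups did not overlap for 4 lower and 0 higher members of this list, beside 4.96% and 4.9% of all genes. Pretreated methamphetamine had the lowest mean of the 10 PFC groups for 9 of the 30 (30.0%), beside 8.8% of all genes. Of 36 chromatin enzymes, 21 were below 0, and the H3K27 demethylase Kdm6b was at -0.38 ± 0.15. For 8 of the 36 (22.2%) the methamphetamine group had the lowest mean. In axon guidance 21 of 33 were below 0, and the semaphorin Sema4d was at -0.46 ± 0.16. The antioxidant peroxidase Gpx3 (0.52 ± 0.21), the astrocytic Id4 (0.25 ± 0.12), the kinase Prkcd (0.41 ± 0.17), the acyl-CoA synthetase Acsl3 (0.17 ± 0.08) and the co-chaperone Chordc1 (0.23 ± 0.11) were higher, and the isopentenyl isomerase Idi1 was at -0.31 ± 0.13. Gfap, the intermediate filament of astrocytes, differed by 0.05 ± 0.28. Of 63 oxidative phosphorylation genes 43 were below 0 with a median of -0.04, and of 39 ribosomal protein genes 32, with a median of -0.06, and no member of either had an unadjusted limma p below 0.05. Of the dopamine genes 6 of 20 were tested, with Ddc at 0.14 ± 0.20 and Maoa and Maob, which break down monoamines, at 0.14 and 0.03.

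Methamphetamine differs from amphetamine by a methyl group on the amine, and both were given at the same doses and stages in this cohort, which allows a direct comparison. No gene of 8530 passed (0%) for methamphetamine minus amphetamine in the limma fit, and 365 (4.28%) had an unadjusted p below 0.05. Nr1d2 differed by 0.03 between the drugs, with a 95% interval of -0.14 to 0.20, Dbp by 0.23 (-0.15 to 0.61) and Per2 by -0.36 (-0.72 to -0.01, limma, adjusted p = 0.997). Fos differed by -0.70 (-1.50 to 0.10) and Arc differed by -0.83 (-1.56 to -0.10). The intervals for Fos and Arc reach beyond 1 log2 unit, so differences of that size are within them.

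The smallest p was that of Tmem100, a membrane protein of endothelial and neuronal cells. It read 8.81, 8.23 and 8.72 with methamphetamine and 9.97, 9.77 and 9.38 with amphetamine, without overlap, a difference of -1.12 ± 0.23 (limma, adjusted p = 0.422). Its saline arrays, at 8.79, 9.83 and 9.40, overlapped both. Next came Tmem97, the sigma-2 receptor, at 0.39 ± 0.09 and Hacd3, a fatty acid elongation enzyme, at 0.37 ± 0.09, both with a limma adjusted p of 0.722. A second probe set of Hacd3 was at -1.10, so its direction is uncertain. When only the pretreated cohort was fitted, Hbb passed at -1.47, with a limma adjusted p of 0.00612.

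Against saline, the amphetamine arrays showed Nr1d2 at 0.54 and Per2 at 1.10, which were the 2 genes (0.0234%) that passed there, each with a limma adjusted p of 0.00291. Both comparisons share the 3 saline arrays. Beside the methamphetamine values, Dbp was at 0.62, Bhlhe41 at 0.37, Nr1d1 at -0.06, Fos at -0.94, Arc at -0.29 and Angptl4 at 0.92 with amphetamine, and none of these passed.

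Methylphenidate, a piperidine stimulant that blocks uptake of dopamine and noradrenaline, was infused at a dose given in other units, so that comparison is not dose-matched. Again no gene passed (0%) for methamphetamine minus methylphenidate in the limma fit, with 647 genes (7.58%) at an unadjusted p below 0.05. Tmem100 was again first, at 9.99, 10.11 and 9.44 with methylphenidate, a difference of -1.26 ± 0.23 (limma, adjusted p = 0.0826). Ptprdl and LOC100911627 were 0.63 ± 0.12 and 0.96 ± 0.20 higher with methamphetamine than with methylphenidate. Against saline, Ptprdl was at 0.09 with methamphetamine and -0.54 with methylphenidate. LOC100911627 was at -0.12 with methamphetamine and, against the same saline arrays, passed at -1.07 with methylphenidate (limma, adjusted p = 0.0129). Without methylphenidate array 3 Tmem100 and Ptprdl passed, and without methamphetamine array 3 LOC100911627 did. Nr1d2 differed by 0.06 (95% interval -0.11 to 0.23), Fos by -1.06 (-1.85 to -0.26) and Arc by -1.22 (-1.95 to -0.49), and none of the 3 passed.

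Relative to the shared saline arrays, methylphenidate had 8 genes that passed (0.0938%), among them Nr1d2 at 0.51, Per2 at 0.95, Bhlhe41 at 0.60, Per1 at 0.83 and Smim3 at 0.84. Dbp was at 0.89 with a limma adjusted p of 0.0543. Fos was at -0.58 and Arc at 0.11. The clock list's median was 0.17 with methamphetamine, 0.28 with amphetamine and 0.29 with methylphenidate, and that of the glucocorticoid-responsive genes 0.20, 0.26 and 0.41. With methamphetamine in the pretreated striatum the medians of these lists, over members tested there, were 0.02 and 0.83. With methamphetamine 5 mg/kg in the naive PFC they were 0.03 and 0.06. The plot of 5 comparisons shows single genes side by side.

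**Figure D5:**
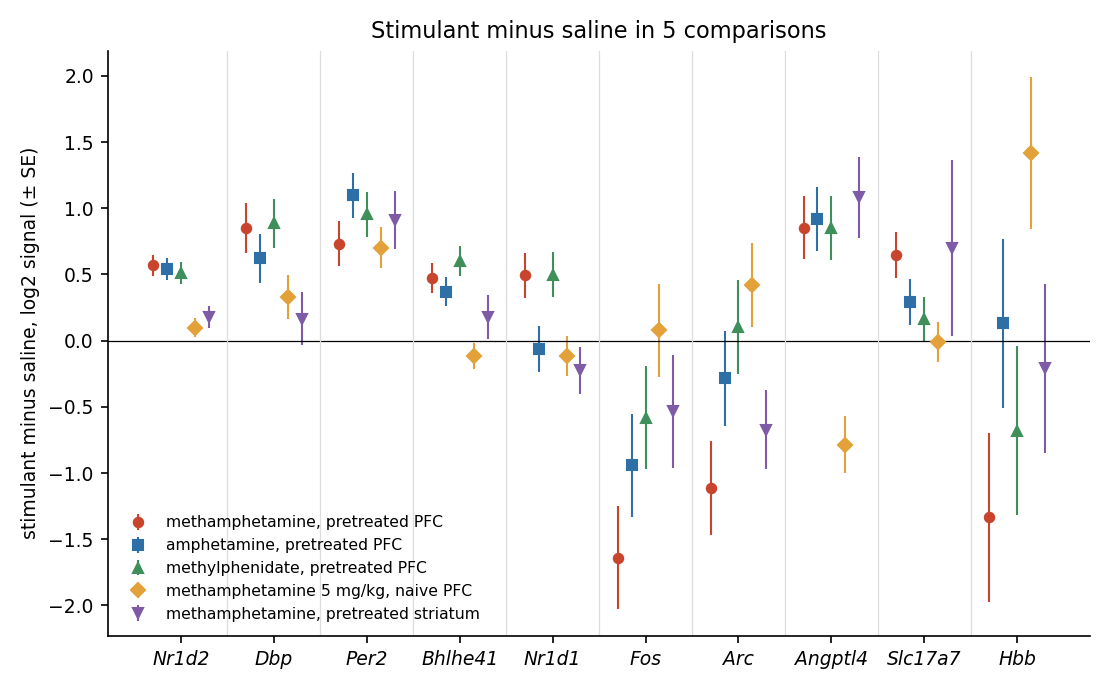
Stimulant minus saline (log2 signal ± SE from limma) for 10 genes in 5 comparisons: methamphetamine, amphetamine and methylphenidate in the pretreated PFC, which share their saline arrays, methamphetamine 5 mg/kg in the naive PFC, and methamphetamine in the pretreated striatum. Nr1d2 lies at 0.51 to 0.57 in the 3 pretreated PFC comparisons and at 0.10 and 0.18 in the other 2, and Fos is lowest with methamphetamine in the pretreated PFC.

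The naive cohort, with methamphetamine first met during conditioning, was set beside the pretreated one. Pretreatment and cohort coincide, so their parts in a difference of effects cannot be told apart. Naive saline arrays 4 and 5 stand apart: the spiked control BioB read 6.57 and 6.18 there and 9.37 to 9.91 on the other 3. The RNA measure differed too. Gapdh signal at the 3′ end exceeded that at the 5′ end by 1.02 or more there (log2 scale). It did so by 0.25 to 0.37 on the other 3 and by 0.32 to 0.58 with naive methamphetamine. For actin the excess was 3.85 or more there and 2.04 to 2.89 on the other 3. The part of this RNA measure was not tested separately from that of BioB. The difference of the methamphetamine effects, pretreated minus naive, passed for no gene (0%) in the limma fit, and 409 genes (4.79%) had an unadjusted p below 0.05. Nr1d2 read 11.31 to 11.53 on the 5 naive saline arrays (median 11.39) and 11.63, 11.47 and 11.41 with naive methamphetamine, which overlap. Its naive effect was 0.10, and the effect in pretreated rats was larger by 0.47 (95% interval 0.25 to 0.70), with a limma adjusted p of 0.319. It was larger by 0.51 when only the naive arrays of higher BioB signal were used. For Per2 the naive effect was 0.70 and the difference between cohorts 0.03 (-0.44 to 0.51).

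Fos was at 9.50 to 11.28 on the naive saline arrays (median 10.75) and at 10.82, 10.52 and 10.78 with naive methamphetamine, an effect of 0.08 with overlapping groups. The effects differed by -1.72 (pretreated minus naive, 95% interval -2.78 to -0.65), and that for Arc differed by -1.54 (-2.51 to -0.56), each with a limma adjusted p of 0.722. Angptl4 had opposite signs in the cohorts. It read 7.72, 7.29 and 7.28 with naive methamphetamine against 7.80 to 8.66 with naive saline (median 8.15), without overlap. The difference of effects was 1.64 ± 0.32, with a limma adjusted p of 0.0959, and 1.40 with the naive arrays of higher BioB signal.

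Elavl1, the RNA-stabilizing protein HuR, gave a difference of 1.70 ± 0.34, also with a limma adjusted p of 0.0959, and 1.53 with the naive arrays of higher BioB signal. It came from the naive cohort, where Elavl1 was at 9.31, 8.55 and 9.46 with methamphetamine and at 10.37 to 11.14 with saline, an effect of -1.54 that passed there as 1 of 3 genes (0.0352%; limma, adjusted p = 0.00144). Its other probe sets disagreed: the naive effect was -0.05 ± 0.12 on the second brightest and -1.26 ± 0.28 on a dimmer one. In the pretreated rats Elavl1 differed by 0.16 with overlapping arrays. Gpnmb, a glycoprotein of glia and macrophages, differed by 1.10 ± 0.24 between the cohorts, and Gpnmb and Elavl1 passed when naive methamphetamine array 3 was left out. Blood signal moved with this comparison, since Hbb ranged from 9.22 to 13.77 over the naive saline arrays, lowest on arrays 4 and 5, and its part was not tested.

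In the striatum of the pretreated rats methamphetamine minus saline passed for 60 of 8530 genes (0.703%), while the difference of effects, PFC minus striatum, passed for no gene of 8241 tested in both (0%) by limma, with 688 (8.35%) at an unadjusted p below 0.05. Without striatal methamphetamine array 1 the difference passed for 22 genes, 7 higher and 15 lower. Nr1d2 was at 11.50, 11.38 and 11.44 on the striatal saline arrays and 11.77, 11.55 and 11.52 with methamphetamine, an effect of 0.18, and the PFC effect was larger by 0.39 ± 0.11 (limma, adjusted p = 0.428). Per2 passed in the striatum at 0.91, and Bmal1 passed at -0.95.

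The smallest p-values for the regional difference belonged to Ddc, Ap3m2 and Agk. Ddc, which makes dopamine from L-DOPA, read 7.28, 7.60 and 7.53 with saline and 7.57, 7.46 and 7.82 with methamphetamine in the PFC, with overlap. In the striatum it read 8.13, 8.23 and 8.23 with saline and 7.21, 6.60 and 7.31 with methamphetamine, without overlap. The difference of effects was 1.30 ± 0.32. Ap3m2, a subunit of the AP-3 vesicle coat, differed by 0.57 ± 0.14 and Agk, a mitochondrial lipid kinase, by 0.67 ± 0.17, each with the limma adjusted p of 0.428 that Ddc also had. The effect on Ap3m2 was 0.26 in the PFC and -0.31 in the striatum. That on Agk was 0.14 in the PFC, with overlap, and -0.52 in the striatum, where it passed (limma, adjusted p = 0.0323).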

How the data were processed

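RNA of dissected PFC and striatum was hybridised to Affymetrix rat expression arrays. The values deposited by the authors are linear microarray intensities, 1 per probe set and array. Per the submitters' processing notes they come from MAS5, whose version is not given in the sources used here. MAS5 scales arrays to a common target, so a change in total RNA cannot be seen; the trimmed mean (2% off each end) was 500.1 to 500.2 throughout. Signals under 1 were set to 1 (2404 of 186594 values on the 6 arrays) before taking log2. The platform annotation gives 1 symbol to 20832 probe sets, several to 436 (not used) and none to 9831. Each of 14218 genes was represented by its brightest probe set on average, and the lowest 40% by PFC mean were left out. Detection calls were not used here, and 1 cortical marker of the lists is not reported here.

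The model was fitted with limma 3.58.1 (R 4.3.3; lmFit and eBayes with trend) over all 31 PFC arrays in 10 groups (21 residual degrees of freedom), over 63 arrays for the regional difference (43) and over the striatum (22), with Benjamini-Hochberg adjustment over all genes tested. The script was tested on simulated data. The number of arrays limits the precision. The members and the 36 gene lists (1019 genes, 655 tested in the PFC) were chosen with earlier results of these data known. Named were up to 10 genes each way by smallest p, up to 3 per list at an unadjusted p below 0.05, 3 in each other contrast, and a set of 17 chosen genes. Other list members, promoters and the order of group means were picked after values were seen. Alternatives were quantile normalization, an added constant of 21.1 (the 20th percentile of PFC signal) for the floor, no filter or a filter of 60%, all probe sets, no trend, fewer arrays in the fit, the replicate number as a block, and leaving out each array. Sequences are from RefSeq (GRCr8).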

Additional observations from a re-analysis of the deposited data

Results flagged for a closer look

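Among the 66 named genes, the group of 5 naive saline PFC arrays was tested for an array far from the others, and 1 was found. Gabpb1 read 8.83 on naive saline array 1, above the other 4. Chance marks about 1 in 20 such groups.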

How the results depend on the processing

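The count of genes passing for methamphetamine minus saline was 1, and it was 5 when the pretreated cohort was fitted alone (Dbp, Vwc2 and Nr1d2 higher, Hbb and Hba-a3 lower), 5 on the 6 arrays alone (Dbp and Slc17a7 higher, Fos, Hbb and Hba-a3 lower) and 1 to 2 with 1 array left out (Per2 added without methamphetamine array 1, Rasl10a without array 3). With the replicate block the count was 2, Nr1d2 and Dbp. Correlations of same-numbered saline and methamphetamine arrays were 0.16, -0.03 and 0.19. Those of methamphetamine were 0.38, 0.05 and 0.46 with amphetamine, 0.17, 0.03 and 0.29 with methylphenidate and 0.06, 0.16 and 0.16 with its striatal arrays, and those of PFC with striatal saline arrays 0.13, 0.16 and 0.11. Except in the last set, not every pair was above 0.1, so the numbers were not taken to pair the arrays. These correlations are of deviations from the group mean. Differently numbered arrays ran from -0.43 to 0.12 for methamphetamine with amphetamine and from -0.13 to 0.0065 for PFC with striatal saline. For methamphetamine they ran from -0.30 to 0.14 with methylphenidate, from -0.18 to 0.05 with saline and from -0.24 to 0.13 with its striatal arrays. The main regional fit also left the arrays unpaired, although the last set was above 0.1 throughout. The replicate block left the other 4 counts at 0. Methamphetamine minus amphetamine had 1 gene (Hbb) with the pretreated cohort alone and 0 to 0 with 1 array left out. Leaving out 1 array gave 0 to 2 for methamphetamine minus methylphenidate, 0 to 2 for pretreated minus naive and 0 to 22 for PFC minus striatum. Using only the 11 naive PFC arrays (3 of them saline) with the higher signal of the spiked control BioB also gave 0 for pretreated minus naive. The other 8 naive PFC arrays, of lower BioB signal, stayed in the main fits, which had no term for this split. The values of 8 genes changed sign when 1 array was left out: Cartpt (-0.57 to 0.0056), Drd1 (-0.49 to 0.061), Penk (-0.14 to 0.32), Bdnf (-0.22 to 0.041), Hacd3 (-0.059 to 0.021), Gfap (-0.20 to 0.37), Tac1 (-0.29 to 0.35) and LOC100911627 (-0.37 to 0.078). The cause of these changes was not tested. Dim probe sets limit the genes of low signal.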
